A study of Mus musculus with 12 samples.

Results

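The genes examined here encode the subunits of oxidative phosphorylation, the mitochondrial machinery that couples electron transfer to ATP synthesis, together with the assembly factors that carry the same symbol prefixes. Members were the protein-coding genes of RefSeq's GRCm38.p6 annotation, the mm10 mouse genome, whose symbols begin with Nduf, Sdha to Sdhd, Uqcr, Cox4i, Cox5, Cox6, Cox7, Cox8 or Atp5. The rule selected 100 of 21900 protein-coding genes: 41 subunits of complex I, 4 of complex II, 8 of complex III, 18 of complex IV, 17 of complex V and 12 assembly factors. Subunits outside these prefixes, such as cytochrome c1 and those encoded by mitochondrial DNA, are not members. The study profiled 5-methylcytosine (m5C) in hippocampal RNA of female wild-type (WT) C57BL/6 mice, with 3 libraries from animals of 3 months (young) and 3 from animals of 18 months (aged). RNA fragments were captured with an m5C antibody (methylated RNA immunoprecipitation, MeRIP-seq), and each captured library had a sequenced input without capture. The values are lists of peaks, 1 per captured library and its input, each peak with a position, a strand and the authors' score. The labels do not say whether the 3 libraries of an age came from separate animals or pools, so p-values measure the spread between these libraries only.

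Complex I takes electrons from NADH, complex II takes them from succinate, and both pass them to ubiquinone. Complex III moves them on to cytochrome c, complex IV reduces oxygen, and complex V uses the resulting proton gradient to make ATP. Neurons depend heavily on this pathway to restore ion gradients after firing. m5C is a methyl mark on cytosine in RNA. The antibody method locates marked stretches at the resolution of RNA fragments and does not identify the single base.

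Peaks numbered 9887, 8549 and 10392 in the young libraries and 15189, 14008 and 14294 in the aged ones, so the longest young list was shorter than every aged list. Protein-coding genes with at least 1 peak numbered 5139 ± 277 in young and 6444 ± 228 in aged libraries (SD, n = 3 each), a ratio of 1.25. Read depth is not given with the lists, and its part in list length was not tested. The numbers of genes are therefore also given with every list limited to its 8549 highest-scoring peaks, called equal length below. That limit does not level all genes: 4647 ± 163 had a peak in young and 4201 ± 14.5 in aged libraries at equal length (SD, n = 3 each), a ratio of 0.904 with no overlap. Markers of hippocampal excitatory neurons, 8 in number, each carried a peak, and 7 did so in every library, whereas of 4 microglial markers 1, Cx3cr1, carried a peak, in every library, and P2ry12, Csf1r and Tmem119 had none. Oligodendrocyte markers carried a peak in 4 of 4 (2 in every library) and astrocyte markers in 4 of 5 (1). Interneuron markers did so in 3 of 4 (0 in every library), endothelial in 2 of 3 (1) and choroid plexus in 1 of 4 (0). A gene needs RNA in the sample to have a peak, and fewer cells of a type cannot be told apart from less RNA per cell in bulk tissue.

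A peak was assigned to a member when it overlapped the gene's span on the same strand. Of the 100 members, 62 had a peak in at least 1 list and 38 had none. Part of this split is fixed by how strand was found. The 12 members whose strand was taken from their own peaks must have a peak. Of these, Ndufs1, Ndufb9, Uqcrq, Cox6a2, Atp5a1 and Atp5mpl were in all 6 lists. The 6 members of unknown strand could receive none. Among the 82 with strand from RefSeq's windows around gene starts, 50 had a peak and 32 had none. The young libraries had peaks in 29, 34 and 39 members and the aged libraries in 42, 47 and 44. The lowest aged library was above the highest young one. The means were 34 ± 5 and 44.3 ± 2.52 members (SD, n = 3 each), a difference of 10.3 and a ratio of 1.3, close to the ratio of 1.25 over all genes (two-sided exact permutation test, p = 0.1, the smallest p that 3 against 3 libraries allow). At equal length the numbers were 26, 34 and 34 in young and 25, 38 and 31 in aged libraries, and both means were 31.3 (exact permutation p = 1), beside the ratio of 0.904 over all genes. Members made up 0.662% ± 0.0917 of the genes with a peak in young and 0.689% ± 0.0619 in aged libraries (SD, n = 3 each; exact permutation p = 0.7), and at equal length 0.674% and 0.745% (exact permutation p = 0.5). The members' spans held 49, 50 and 69 peaks in young and 71, 84 and 75 in aged libraries, 56 ± 11.3 against 76.7 ± 6.66 (SD, n = 3 each; exact permutation p = 0.1). At equal length the same means were 50.3 and 50 peaks (exact permutation p = 1).

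**Figure D1:**
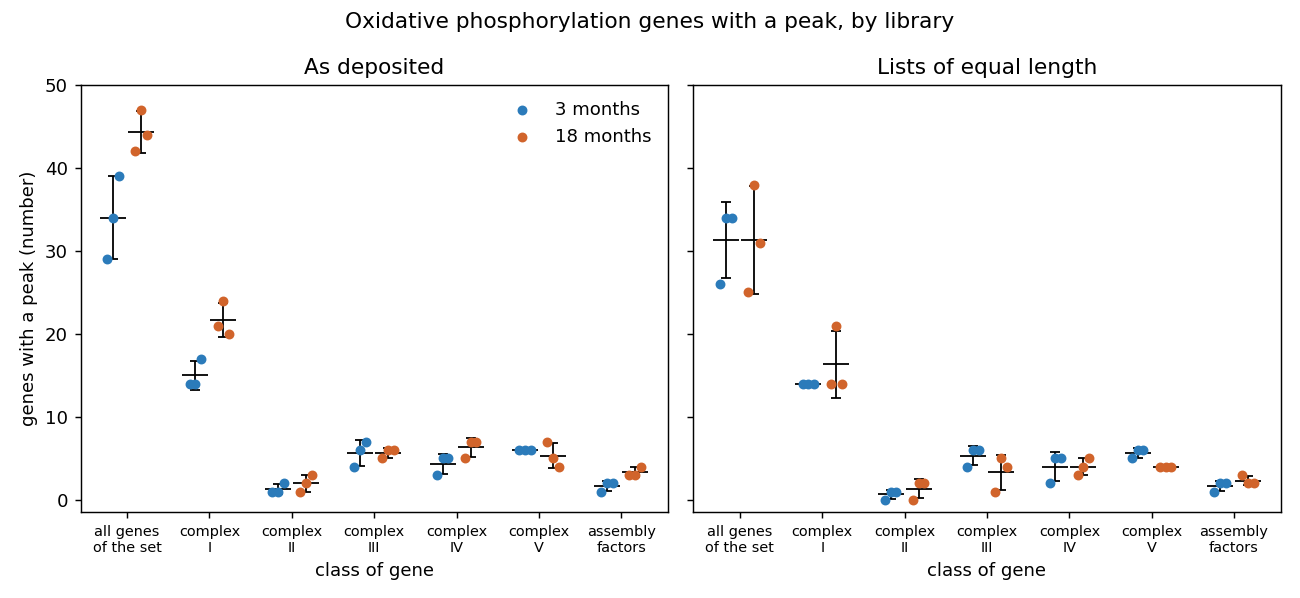
Number of members with a peak in each library, by complex, for the lists as deposited and for lists of equal length (y axes, number of genes, starting just below 0 so that points at 0 show). Points are libraries, horizontal bars means and vertical bars 1 SD. As deposited, complex I has 14 to 17 genes in young and 20 to 24 in aged libraries. At equal length the complex I ranges meet, at 14 in young and 14 to 21 in aged libraries.

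Complex I accounted for 6.67 of the difference of 10.3 members. Its members with a peak numbered 14, 14 and 17 in young and 21, 24 and 20 in aged libraries, and the groups did not overlap, as they did not over all genes. The means were 15 ± 1.73 and 21.7 ± 2.08 (SD, n = 3 each; exact permutation p = 0.1, Benjamini-Hochberg adjusted p = 0.3 over the 6 classes), a ratio of 1.44 beside 1.25 over all genes. At equal length they were 14, 14 and 14 against 14, 21 and 14, and the groups met (exact permutation p = 1). Complex I supplied 44.3% ± 3.61 of the members with a peak in young and 48.8% ± 2.98 in aged libraries (SD, n = 3 each; exact permutation p = 0.2). Of its 41 genes, 27 had a peak in some list.

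Complex I is built around core subunits that carry the flavin and the iron-sulfur clusters, surrounded by accessory subunits. Ndufs1, the largest iron-sulfur subunit, had 4 peaks in each young list and 5, 6 and 6 in the aged lists, 29 in all and the most of any member. Its best peak scored 434, 261 and 256 in young and 843, 733 and 1303 in aged libraries. Scores are comparable only within a list, so these are read as ranks: the best Ndufs1 peak stood at percentile 71.0 to 77.7 of the young lists and 84.8 to 90.1 of the aged lists. Lists of different length give ranks that show no change by themselves. Ndufv2, an iron-sulfur subunit of the NADH-oxidising tip, was also in all 6 lists. Ndufv1, which binds the flavin and NADH, had a peak in 1 young and 3 aged lists, with scores of 58.5 in the young list and 65.4, 62.5 and 67.5 in the aged lists. They stood at percentile 12.1 to 17.8 of their lists, and at equal length Ndufv1 was in 1 young and 0 aged lists. Ndufs8 was in 2 lists of each age, and Ndufs7 had no peak.

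Complex I held 27 of the 62 members with a peak. The members found in all 3 aged and in no young list were 4, and all belong to complex I. Among them were Ndufs3, a core subunit of the module through which electrons reach ubiquinone, and the accessory subunits Ndufb3 and Ndufb10, which lie in the membrane arm. These 4 were 6.45% of the 62 members with a peak, beside 4.20% of the 9427 protein-coding genes with a peak. No member was in all 3 young and no aged list, beside 0.817% of all genes. The scores were modest. Ndufs3 scored 249.6, 233 and 51.2 in the aged lists. Ndufb10 scored 113, 109 and 217, and Ndufb3 scored 95.8, 207 and 79.7. The lowest score kept at equal length was 121, 105 and 108 in the aged lists. There Ndufs3 and Ndufb10 stayed in 2 aged lists each and Ndufb3 in 1, and no member was in all 3 aged and no young list, beside 1.33% of all genes, and none was in all 3 young and no aged list, beside 2.69%. Ndufb3 had no single region in all 3 aged lists: its regions were each in 2.

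Among the accessory subunits of complex I, 21 of 34 had a peak and 8 were in all 6 lists: Ndufa5, Ndufa8, Ndufa9, Ndufa12, Ndufb9, Ndufs4, Ndufs5 and Ndufv3. Ndufa12 ranked highest of all members, with best scores of 2080.5, 1911 and 1712 in young and 3100 in each aged library. Between 274 and 684 peaks of each list share the score 3100, so these 3 values cannot be ordered. Ndufb9 had best scores of 662, 119 and 530.1 in young and 1106, 1557 and 1433 in aged libraries. Ndufs4, an accessory subunit of the electron-input arm whose loss in mice is a widely used model of complex I deficiency, had 1 peak per list with scores of 164, 131 and 72.3 in young and 128, 152 and 184 in aged libraries. These overlap in rank within their lists. Ndufa10 was in 1 young and 3 aged lists, with scores of 69.9 in young and 271, 165 and 307 in aged lists. Ndufa6, Ndufa11 and Ndufa13 were in 2 young and 3 aged lists, and Ndufa11 in 2 young and 0 aged lists at equal length. Ndufab1, the mitochondrial acyl carrier protein, was in 2 of each. Ndufa2, Ndufb11 and Ndufs6 were in 1 aged list only, and Ndufb6 and Ndufb8 in 1 young list only. Ndufa4, whose protein is now placed in complex IV, was in 1 list of each age.

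Complex II, succinate dehydrogenase, also belongs to the citric acid cycle. It had 1, 1 and 2 members with a peak in young and 1, 2 and 3 in aged libraries (exact permutation p = 0.7), and at equal length 0, 1 and 1 against 0, 2 and 2 (exact permutation p = 0.6). Sdha, the flavoprotein that oxidises succinate, was in 1 young list with a score of 101 and in 3 aged lists with scores of 115, 226 and 119.9. Sdhb, the iron-sulfur subunit, was in 3 young and 2 aged lists, with scores of 54 to 63.5 in young and 63.3 and 106 in aged lists. Sdhc was in 1 aged list with a score of 163, and Sdhd, the other membrane anchor, had no peak.

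Complex III had a peak in each of its 8 members in some list as deposited, the only class in which no gene lacked one. The strand of Uqcrb, Uqcrc2 and Uqcrq was itself taken from their peaks, and at equal length Uqcrc2 had no peak. Its numbers per library were 4, 6 and 7 in young and 5, 6 and 6 in aged libraries, with both means at 5.67 (exact permutation p = 1). At equal length the means were 5.33 ± 1.15 and 3.33 ± 2.08 (SD, n = 3 each; exact permutation p = 0.3). Uqcrh, the hinge protein that helps cytochrome c1 meet cytochrome c, had 1 peak of identical ends in every list. It scored 681, 856 and 1364 in young and 2322, 2161 and 1976 in aged libraries, which placed it at percentile 83.7 to 92.3 and 93.3 to 93.8. Uqcrq, a small subunit next to cytochrome b, was also in all 6 lists, at 216 to 335 in young and 119 to 379 in aged libraries. Uqcrc2, a core subunit, was in no young and 2 aged lists with scores of 58.6 and 50.5, close to the lowest score deposited. Its partner Uqcrc1 was in 3 young and 2 aged lists. Uqcrb was in 3 young and 2 aged, Uqcr11 in 2 and 3, Uqcr10 in 2 and 2, and Uqcrfs1, the Rieske iron-sulfur protein, in 1 young list.

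Complex IV, cytochrome c oxidase, had 3, 5 and 5 members with a peak in young and 5, 7 and 7 in aged libraries, and 10 of its 18 genes had one in some list. The means were 4.33 ± 1.15 and 6.33 ± 1.15 (SD, n = 3 each; exact permutation p = 0.3), and at equal length both were 4. Cox5b had 1 peak of identical ends per list, with scores of 165, 274 and 310.3 in young and 885, 707 and 1478 in aged libraries. It stood at percentile 56.4 to 74.8 of the young and 84.4 to 91.3 of the aged lists. Cox6a2, the isoform typical of heart and skeletal muscle, was in all 6 lists at low scores of 54.5 to 114, and in 2 young and 0 aged lists at equal length. Its span overlaps that of Itgad, whose strand is not given, so its assignment is uncertain. Cox7c was in 1 young list with a score of 279 and in 3 aged lists with 444, 318 and 212. Cox7b was in no young and 2 aged lists, with scores of 101 and 410.4. Cox7a2l was in 2 young lists at 205 and 80.7 and in 3 aged lists at 1234, 513 and 1762. Cox6b1 was in 1 young and 2 aged lists, Cox5a and Cox8a in 1 of each, Cox6c in 1 aged list and Cox7a2 in 1 young list. Cox4i1 and Cox6a1 are the isoforms of most tissues. Cox6a1 had no peak, whereas Cox4i1 is of unknown strand and could be assigned none.

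Complex V, the ATP synthase, had 6 members with a peak in every young library and 7, 5 and 4 in the aged libraries, 6 ± 0 against 5.33 ± 1.53 (SD, n = 3 each; exact permutation p = 0.7). At equal length the means were 5.67 ± 0.577 and 4 ± 0, and the groups did not overlap (exact permutation p = 0.1), a ratio of 0.706 beside 0.904 over all genes, which did not overlap either. Of its subunits, 4 were in all 6 lists. Atp5a1 encodes the alpha subunit of the catalytic head, and its best scores of 779.7, 279 and 83.5 in young and 2040.3, 128 and 1907 in aged libraries overlapped widely. Atp5c1, the central shaft, had 3 or 4 peaks per list. Atp5mpl, a small subunit of the membrane part, had 2 or 3 per list. Atp5h, a subunit of the peripheral stalk, scored 3100, 747 and 601 in young and 436, 573 and 829 in aged libraries. Its percentile was 84.7 to 99.9 in young and 76.6 to 85.9 in aged lists, and these ranges overlap. Atp5j2 and Atp5pb were in 2 young and 1 aged list, Atp5d in 1 of each, Atp5j in 1 young list and Atp5g2 in 1 aged list. Atp5b, the catalytic beta subunit, and Atp5o, which joins the stalk to the head, had no peak.

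The assembly factors help build complexes I and II and are not part of the finished enzymes. They had 1, 2 and 2 members with a peak in young and 3, 3 and 4 in aged libraries, and the groups did not overlap (exact permutation p = 0.1, Benjamini-Hochberg adjusted p = 0.3), as they did not over all genes. At equal length the means were 1.67 and 2.33 (exact permutation p = 0.6). Ndufaf2, a paralogue of Ndufa12 that holds its place during assembly, was in all 6 lists with 3 or 4 peaks each. Its best scores were 298, 458 and 464 in young and 571, 461 and 362 in aged libraries. Ndufaf4 was in 2 young and 3 aged lists. Ndufaf8 was in no young and 2 aged lists, with scores of 155 and 99.2, and Ndufaf1 and Ndufaf7 were in 1 aged list each.

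Counting every member, 26 were in more aged than young lists, 10 in more young than aged lists and 26 in equally many. Over all genes with a peak, 42.8% were in more aged and 17.1% in more young lists. At equal length 54 members had a peak, 15 of them in more aged and 14 in more young lists, beside 22.2% and 35.3% of all genes with a peak at that length. A difference of 2 or more lists was seen for 11 members toward the aged libraries, beside 16.2% of all genes, and for none toward the young libraries, beside 3.84%. The median span was 8143 bases in members with a peak and 6588 in those without.

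Overlapping peaks of the 6 lists were merged into regions, which gave 123 regions in members among 24006 in protein-coding spans. Regions found in all 6 lists were 28, or 22.8%, beside 17.6% of all regions. Of these 28, 24 had identical ends in every list, or 85.7%, beside 68.9%. Regions in all 3 aged and no young list were 7, or 5.69%, beside 5.17% of all regions, and none was in all 3 young and no aged list, beside 0.621%. Complex I held 59 of the 123 regions and 6 of the 7, or 10.2% of its regions beside 5.17% of all regions. Ndufs1 had a pair of these 7, on chromosome 1 from 63166291 to 63166367 and from 63169229 to 63169336, inside a gene that had other peaks in every list. Ndufa10 had 1 on chromosome 1 from 92439098 to 92439907. The Ndufs3 region lay on chromosome 2 from 90904584 to 90904827 and that of Ndufb10 on chromosome 17 from 24724187 to 24724478, both across the start of the span. Outside complex I, the region was in Atp5a1 on chromosome 18 from 77775777 to 77775855. The gene table holds spans without exons, so exon, intron and UTR positions were not analysed here.

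Peaks in members often lay near the ends of the spans. In spans of at least 2000 bases, 28.4% ± 4.59 of the young and 27.3% ± 2.43 of the aged peaks had their midpoint in the first 1000 bases (SD, n = 3 each; exact permutation p = 0.7). For the last 1000 bases the shares were 25.5% ± 4.13 and 24.8% ± 2.02 (exact permutation p = 0.8). Over all genes the shares were 8.51% to 10.6% and 8.35% to 9.42% per library. Members' spans are shorter, with a median of 7336 bases against 17146, so the fixed window covers more of them. Among genes with spans no longer than the longest member the shares were 10.5% to 12.8% in the first and 10.8% to 12.1% in the last 1000 bases, and the part of span length in the rest of the gap was not tested. Of the 123 regions, 23 touched the start of the span and 19 its end. The median percentile of the members' peaks within their list was 51.8 ± 3.29 in young and 55.8 ± 1.89 in aged libraries (SD, n = 3 each; exact permutation p = 0.2).

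**Figure D2:**
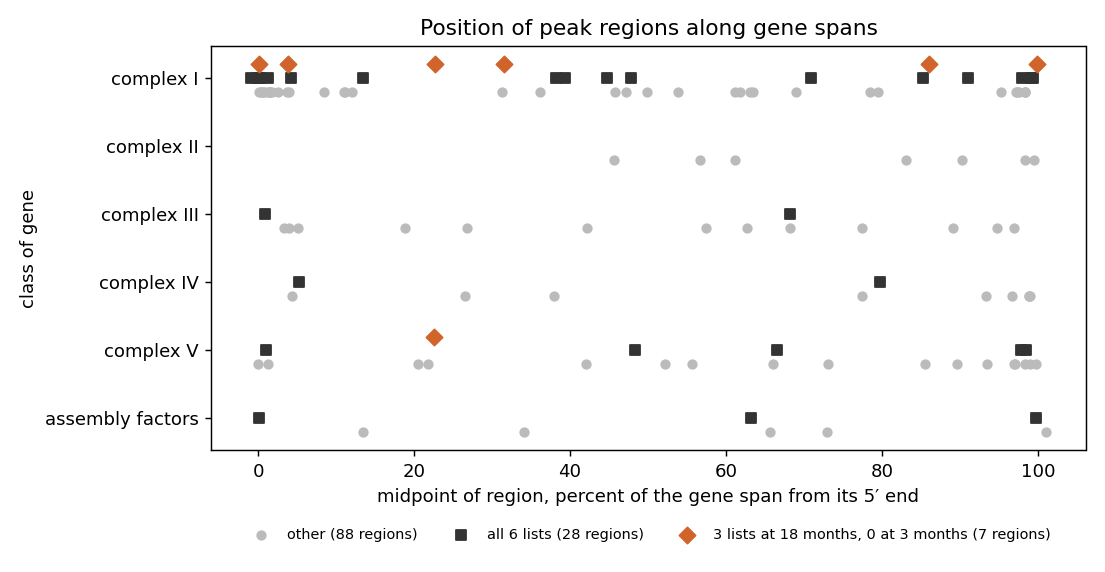
Midpoint of each of the 123 peak regions along its gene span (x axis, percent of the span from its 5′ end), by class of gene (y axis), with regions in all 6 lists as black squares, regions in 3 aged and 0 young lists as orange diamonds and the other 88 as grey circles. Regions cluster at both ends of the spans in complex I, and 6 of the 7 orange diamonds are in complex I, which holds 59 of the 123 regions.

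Some start regions reached before the annotated transcript start, and others began at it or after it. RefSeq's table of windows around GRCm38.p6 gene starts matched 82 of the 100 members, and 26 of these windows overlapped a region. A set of 5 is printed, as the 250 bases before the start, 5′ to 3′ on the gene's strand, with the bases covered by the peak region in capitals. Ndufs3 (chr2:90904722-90904971, minus strand) and Ndufb10 (chr17:24724424-24724673, minus strand) are shown because their start regions were in all 3 aged and no young list. Ndufb3 (chr1:58586147-58586396, plus strand) had a start region in 2 aged lists. Ndufa12 (chr10:94198785-94199034, plus strand) and Ndufa8 (chr2:36049339-36049588, minus strand) are shown as genes with a start region in all 6 lists.
Ndufs3: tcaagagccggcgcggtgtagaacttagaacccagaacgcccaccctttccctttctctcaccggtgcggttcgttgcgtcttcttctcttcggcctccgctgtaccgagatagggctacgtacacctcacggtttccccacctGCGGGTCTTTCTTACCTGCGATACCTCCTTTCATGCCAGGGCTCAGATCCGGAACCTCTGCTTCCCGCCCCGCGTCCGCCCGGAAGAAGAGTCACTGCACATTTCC
Ndufb10: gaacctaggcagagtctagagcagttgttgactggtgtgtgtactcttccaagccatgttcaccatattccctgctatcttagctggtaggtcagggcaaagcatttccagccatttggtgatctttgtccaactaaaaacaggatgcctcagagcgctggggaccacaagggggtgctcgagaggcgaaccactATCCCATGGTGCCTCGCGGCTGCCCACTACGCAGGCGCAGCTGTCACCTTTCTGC
Ndufb3: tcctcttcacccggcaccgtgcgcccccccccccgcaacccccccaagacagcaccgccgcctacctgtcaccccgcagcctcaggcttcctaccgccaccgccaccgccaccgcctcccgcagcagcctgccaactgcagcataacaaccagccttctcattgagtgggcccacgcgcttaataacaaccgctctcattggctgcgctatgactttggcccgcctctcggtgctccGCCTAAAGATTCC
Ndufa12: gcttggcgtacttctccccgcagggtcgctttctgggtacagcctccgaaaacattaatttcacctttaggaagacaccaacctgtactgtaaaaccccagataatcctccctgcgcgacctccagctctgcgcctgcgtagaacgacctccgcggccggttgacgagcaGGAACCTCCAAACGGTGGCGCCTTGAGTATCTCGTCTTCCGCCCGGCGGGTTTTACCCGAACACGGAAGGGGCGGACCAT
Ndufa8: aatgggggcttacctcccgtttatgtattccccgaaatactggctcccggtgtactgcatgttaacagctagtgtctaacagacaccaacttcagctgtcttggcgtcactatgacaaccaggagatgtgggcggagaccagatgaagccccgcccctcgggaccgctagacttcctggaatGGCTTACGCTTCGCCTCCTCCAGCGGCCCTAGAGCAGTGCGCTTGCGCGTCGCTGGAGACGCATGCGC

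The covered part reached 106 bases before the annotated start in Ndufs3, 80 in Ndufa12, 68 in Ndufa8, 55 in Ndufb10 and 13 in Ndufb3. Many start regions not printed covered no base before the start. Among those in all 6 lists, the region covered 0 such bases in Cox5b, 1 in Uqcrh and all 250 in Ndufa5. Counted with the 50 bases after the start, cytosine made up 37.2% of the covered bases in Ndufs3, 36.2% in Ndufb10, 30.2% in Ndufb3, 29.7% in Ndufa8 and 26.2% in Ndufa12. Over whole windows, of 250 bases before and 50 after the start, the members' median GC content was 58.5% with 20 CpG pairs, beside 56.3% and 13 in all 21263 protein-coding windows. For each member only the window nearest the span start was kept, whereas the full set was not reduced in that way.

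Nuclear genes of oxidative phosphorylation are known to share binding motifs of NRF1, GABPA and YY1, transcription factors that tie them to mitochondrial demand. The letters GCGCANGCG (NRF1) were found on either strand in 23 of 82 member windows, or 28%, beside 8.58% of all windows. The full set can hold several windows of a gene, unlike the members' set. CCGGAAG (GABPA) was in 21, or 25.6%, beside 11.6%, and AAGATGGCG (YY1) in 7, or 8.54%, beside 1.83%. No motif contains another. NRF1 letters were in 26% of the windows of members with a peak and 31.2% of those without, GABPA letters in 22% and 31.2%, and YY1 letters in 10% and 6.25%. Of the sequences printed, Ndufa8 holds the NRF1 letters and Ndufs3 the GABPA letters, both within the capitals, whereas the NRF1 letters in the window of Ndufb10 are not within the printed bases. A match is a description of letters and not of binding.

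Other mitochondrial gene lists were set beside the members. Mitochondrial ribosomal proteins, which translate the mitochondrially encoded subunits, had a peak in 13.7 ± 4.04 of 78 genes in young and 25.7 ± 4.51 in aged libraries (SD, n = 3 each; exact permutation p = 0.1), a ratio of 1.88, and at equal length in 11.3 and 13. Enzymes of the citric acid cycle and pyruvate dehydrogenase, which supply the NADH, had one in 9.33 ± 0.577 and 15 ± 1 of 23 (SD, n = 3 each; exact permutation p = 0.1), and at equal length in 8.67 and 9. In that list Ogdh, a subunit of the oxoglutarate dehydrogenase complex, was in all 3 aged and no young list. Assembly factors and carriers outside the member prefixes had 9.33 and 13.7 of 44 (exact permutation p = 0.2), and 8.33 in both ages at equal length. Genes of mitochondrial biogenesis and DNA maintenance had 6.33 and 9.67 of 20 (exact permutation p = 0.1), and 6.33 in both ages at equal length. As deposited, Timmdc1 and Uqcc1 of the former list and Top1mt of the latter were in all 3 aged and no young list. Such genes were 9.52% of the 21 citric acid cycle genes with a peak. They were 9.52% of 21 assembly factors and carriers and 7.14% of 14 biogenesis genes, beside 4.20% of all genes. Mitochondrial ribosomal proteins had 0. Whether these genes stay so at equal length is not given. The percentage of members with a peak minus that of the citric acid cycle list was -6.58 ± 3.09 points in young and -20.9 ± 3.49 in aged libraries (SD, n = 3 each; exact permutation p = 0.1). At equal length it was -6.35 ± 2.73 and -7.8 ± 5.55 points, and the groups overlapped (SD, n = 3 each; exact permutation p = 0.8). The same difference for mitochondrial ribosomal proteins was 16.5 and 11.4 points (p = 0.4), for assembly factors and carriers 12.8 and 13.3 (p = 1), and for biogenesis genes 2.33 and -4 (p = 0.8), each by the exact permutation test on the lists as deposited. These 4 differences were not adjusted for their number, and none can pass a threshold of 0.05 with 3 libraries per age.

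**Figure D3:**
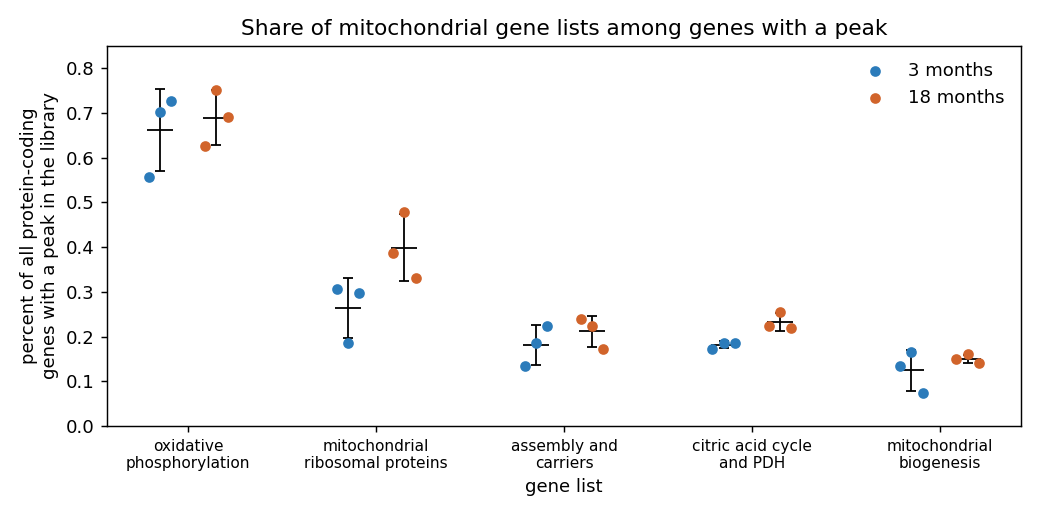
Genes of each mitochondrial list as a percentage of all protein-coding genes with a peak, per library (y axis, percent). Points are libraries, horizontal bars means and vertical bars 1 SD. The ranges of the 2 ages overlap for oxidative phosphorylation, with means of 0.662% and 0.689%, and do not overlap for mitochondrial ribosomal proteins, at 0.264% and 0.399%, or for the citric acid cycle and pyruvate dehydrogenase (PDH), at 0.182% and 0.233% (exact permutation p = 0.1 for each of the latter). At equal length, not plotted, the latter were 0.245% and 0.309%, and 0.187% and 0.214%, and the ages overlapped (exact permutation p = 0.4 each).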

How the data were processed

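Peak lists were used, 6 in all, 1 for each captured hippocampal library and its input (3 young, 3 aged). Per the submitters' processing notes, reads were handled with cutadapt 1.9.3 and HISAT2 2.0.4 on mm10; the peak names begin with MACS, the name of a peak caller, whose version and settings are not stated, and the labels describe a kit for directional libraries. Each deposited peak carries the authors' score, whose scale is not given, so it was ranked only within its list. Lists hold no read counts, so depth is unknown and no counting interval is given. Peaks were assigned to RefSeq GRCm38.p6 gene spans by at least 1 base on the same strand, with Python 3.11.15, pandas 2.3.3 and numpy 2.4.6. Strand came from RefSeq's start windows for 82 members and from peaks for 12, a choice made after the files were seen, and 6 members of unknown strand received no peak. Libraries were grouped by age from the labels and compared with two-sided exact permutation tests. Simulated peaks were used to check the assignment and the calls of genes in all 6 or only in aged lists, not the tests. Genes named were those in all 6 lists, in 1 age only, differing by 2 or more lists, or ranked highest in a complex. Members, lists and this rule were chosen with earlier results of these data known. Alternatives covered list length, score threshold, overlap, shared peaks, strand, left-out libraries and pairing. Some results are not reported here.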

Additional observations from a re-analysis of the deposited data

How the results depend on the processing

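No comparison of 3 against 3 libraries can pass 0.05, so only direction and size were followed. With lists of equal length the aged minus young difference was 0 members in all (10.3 as deposited), -0.333 peaks, 0 for complex IV, -2 for complex III and -0.657 points for the median percentile, and the members in aged lists only were 0. They were 1 when each list kept its upper part by score and 3 when strand was ignored. Complex III, at a difference of 0 as deposited, gave 0.333 with scores of at least 100, -0.333 with strand from the start windows only, and -0.833 to 0.667 without 1 library. The other ranges without 1 library were 7.83 to 12.8 members in all, 17 to 27.2 peaks, 5.5 to 7.67 for complex I, 0.167 to 1.17 for complex II, 1.33 to 2.67 for complex IV, -1.5 to 0 for complex V (0 without aged replicate 3), 1.33 to 1.83 for assembly factors and 2.6 to 5.82 percentile points. The count of members in aged lists only was 5 to 6 without 1 library. Leaving out a library loosens that rule, so this count could not fall below 4. For the counts of 1, 3 and 5 to 6 no share over all genes is given. The share of peaks in the last 1000 bases differed by -2.1 to 1.59 points without 1 library, with 1.59 without young replicate 3, 0.34 without aged replicate 2 and 0.346 with strand from the start windows only. The share in the first 1000 bases differed by -3.24 to 1.3 points, with 1.3 without young replicate 2, 0.0183 at equal length and 0.817 with strand from the start windows only. With the replicate block, a pairing of libraries by number, the difference stayed 10.3 (exact sign-flip test, p = 0.25, its smallest value). Same-numbered libraries correlated at 0.020, 0.013 and 0.020, and libraries of different number at -0.021 to 0.002. All of these values are small, and the labels do not say whether equal numbers pair samples. The cause of these shifts was not tested, and the alternative using the start windows alone and the equal-length values of the other mitochondrial lists were chosen after seeing the data.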

Other observations

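Peaks on the strand opposite to a member's were not counted for it. Peaks opposite to Ndufb11 were 3, assigned to Rbm10, and Atp5md had 1, assigned to Taf5. Ndufa4l2, of unknown strand, held 1 peak assigned to Shmt2.

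The reference table lists 19 pseudogenes with the same symbol prefixes, and none of their spans held a peak in any list.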
